A study of Mus musculus with 32 samples.

Results

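The Vhq52 amplicon reads heavy chain genes that were assembled with a V gene of the IGHV2 (Q52) family, in genomic DNA of sorted pro-B cells of WT (control) mice and of mice with a Setd2 knockout, called KO here. Its members are the productive clonotypes of the deposited series table that carry the sequencing batch label of this amplicon and come from a library with a sample in the series. There were 138 such clonotypes of 930 in the whole table, from 9 of the 32 samples. They came from 5 WT mice (1418, 1432, 1484, 1485 and 1536, with 93 clonotypes) and 4 KO mice (1421, 1464, 1487 and 1500, with 45 clonotypes). All mice were 8 weeks old and had no treatment. The cells were sorted from bone marrow as B220+, CD43+, IgM- and CD25-. A KO mouse is one labelled with the Setd2 knockout. No source used here gives the strain or the way in which Setd2 was deleted. The amplicons do not measure the gene, so genotypes were taken from the labels unchecked. No marker genes were measured, so the sorted cell type rests on its label too. The label was checked against the V genes: all 138 clonotypes had an IGHV2 gene, and 0 clonotypes of the other amplicons (Vh7183 and Vh558) did.

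A pro-B cell builds its heavy chain gene by joining a D segment to a JH segment and then a V gene to the DJ unit. The RAG recombinase cuts the segments, nucleases trim their ends, and terminal transferase adds bases without a template (N bases), so the junction, which encodes the CDR3 loop, differs from cell to cell. A D segment can be read in 3 frames. Mouse heavy chains mostly use the frame rich in tyrosine, while another encodes hydrophobic residues and the last often holds stop codons. SETD2 is a histone methyltransferase that marks the bodies of transcribed genes. The comparison of KO with WT asks whether the IGHV2 repertoire of pro-B cells differs when Setd2 is deleted.

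The largest clonotype of each mouse is shown first, because a few clonotypes held most reads of many libraries: the 3 largest together had 38.1% (WT 1484) to 99.2% (KO 1421) of the kept reads. Each sequence is the CDR3, 5′ to 3′, with the V, D and J parts in lower case and the bases assigned to none of them in capitals. WT 1418 and KO 1464 had the same largest clonotype.
WT 1418 and KO 1464 (IGHV2-9, no D, IGHJ4): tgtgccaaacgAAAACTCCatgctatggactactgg
WT 1432 (IGHV2-9-1, IGHD2-3, IGHJ4): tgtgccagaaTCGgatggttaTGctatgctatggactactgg
WT 1484 (IGHV2-6, IGHD2-4, IGHJ4): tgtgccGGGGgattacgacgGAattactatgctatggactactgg
WT 1485 (IGHV2-2, IGHD2-6, IGHJ4): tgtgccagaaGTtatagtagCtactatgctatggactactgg
WT 1536 (IGHV2-3, IGHD2-6, IGHJ4): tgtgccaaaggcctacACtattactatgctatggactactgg
KO 1421 (IGHV2-3, IGHD2-6, IGHJ4): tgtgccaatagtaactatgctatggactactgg
KO 1487 (IGHV2-2, IGHD1-1, IGHJ4): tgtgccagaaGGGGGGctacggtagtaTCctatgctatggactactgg
KO 1500 (IGHV2-2, IGHD2-3, IGHJ4): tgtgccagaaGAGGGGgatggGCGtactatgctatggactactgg

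All of these joins used IGHJ4, the JH gene whose primer was used in the PCR, and they used 5 different V genes. The junction of KO 1421 had 0 inserted bases, and that of KO 1500 had 9.

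The libraries held 2012 to 7585 kept reads, out of 57737 to 89355 sequenced, and 7 to 28 clonotypes. The 9 libraries shared 1 sequencing batch, so no value could be split by batch. A clonotype had a median of 31 reads, and 52 of the 138 had fewer than 10. These small entries together held 0.561% of the kept reads. Reads are PCR copies without molecular identifiers, so a read count is not a count of cells, and fewer cells of a clone cannot be told apart from weaker amplification of it. With few clonotypes a share moves in large steps: 1 of the 7 clonotypes of KO 1421 is 14.3%.

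Sequences were shared between mice, and this touches every later comparison. Of the 121 distinct CDR3 nucleotide sequences, 13 were found in more than 1 of the 9 mice, in 30 entries. There were 10 in 2 mice, 2 in 3 mice and 1 in 4 mice, and 7 of the 13 were found in both genotypes. WT 1485 and KO 1421 had none. Shared sequences held 96.7% of the reads of WT 1418, 95.9% of KO 1464, 79.7% of WT 1536, 50.1% of WT 1432, 26.6% of KO 1487, 8.60% of WT 1484 and 7.60% of KO 1500. How a sequence came to be in more than 1 library was not tested. No CDR3 sequence was shared with another amplicon: 0 clonotypes of the Vh7183 and Vh558 libraries had one of these sequences. Sharing between mice within an amplicon was also present in Vh7183 (10 of 158 sequences) and was 0 of 563 sequences in Vh558.

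The shared sequences fell into 2 forms. They are numbered 1 to 13 by their highest read count. In the first form the sequence was large in more than 1 mouse, as in these 3.
Sequence 1 (IGHV2-9, no D, IGHJ4): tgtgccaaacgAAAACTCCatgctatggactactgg
Sequence 4 (IGHV2-6, no D, IGHJ4): tgtgccagaCAGAAGatggactactgg
Sequence 3 (IGHV2-9-1, IGHD1-1, IGHJ4): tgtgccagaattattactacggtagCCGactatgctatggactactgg

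Sequence 1 had 3374 reads in WT 1418 (44.5% of the library) and 1442 in KO 1464 (64.2%), with 10 in KO 1487 and 2 in WT 1536. Sequence 4 had 1913 reads in WT 1418 (25.2%) and 681 in KO 1464 (30.3%). Both hold no D segment and have 8 and 6 bases that come from neither V nor J. Sequence 3 had 2012 reads in WT 1418 (26.5%), 786 in KO 1487 (26.3%) and 336 in KO 1500 (7.60%). So the 3 largest clonotypes of WT 1418, with 96.2% of its reads, were each also a large clonotype of a KO mouse. The clone lists of the single samples keep all reading frames. An entry called out of frame there had 250 reads in WT 1418 (9.48% of the list) and 99 in KO 1464 (3.42%). Its residues from VPD to the end are given by the bases of sequence 4 with the start read 1 base later. It is therefore not counted here as a join apart from sequence 4.

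In the second form, a large clonotype of 1 mouse appeared at a few reads in another. This was the case for 13 of the 17 lower entries of shared sequences, each with 2 to 18 reads and under 5% of the reads of the highest one. They lay in WT 1418 (6 entries), KO 1464 (4), WT 1536 (2) and KO 1487 (1). Of the largest clonotypes of WT 1536, 6 appeared in WT 1418 at 3 to 9 reads. Sequence 5, the largest of WT 1536, had 533 reads there and 4 in WT 1418. In the same pair of mice sequence 6 (IGHV2-2) had 467 and 9 reads, sequence 7 (IGHV2-9-1) 461 and 3, and sequences 9, 11 and 12 (all IGHV2-3) 378 and 5, 351 and 6, and 190 and 7. From WT 1432 to KO 1464 it was 3 sequences: the largest clonotype of WT 1432 (sequence 2) with 2900 and 18 reads, sequence 10 with 364 and 5, and sequence 13 with 146 and 6. Sequence 8 (IGHV2-2) had 452 reads in WT 1484, 3 in WT 1536 and 2 in KO 1464. These entries count as full clonotypes when each clonotype has the same weight, so 6 of the 15 clonotypes of WT 1418 were sequences that are large in WT 1536.

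**Figure D1:**
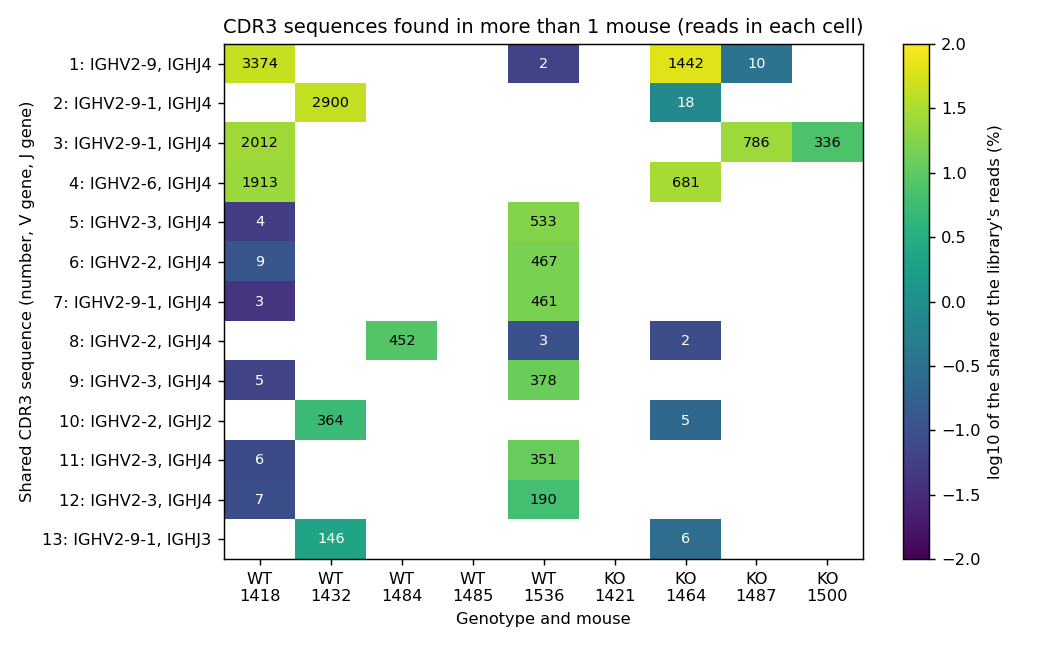
The 13 CDR3 sequences found in more than 1 mouse (rows, numbered by their highest read count, with V and J gene) in the 9 mice (columns); colour gives the log10 of the share of the library's reads in percent and the number in a cell its reads. Sequences 1, 3 and 4 are bright in more than 1 column, while the others have 1 bright cell and cells of 2 to 18 reads elsewhere.

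Sharing was also found in the clone lists of the single samples. They held 688 clonotypes of 641 sequences, and 35 sequences were in more than 1 mouse. Of these, 22 were called out of frame or held a stop codon. Among the 22 are entries whose residues are given by shared sequences 1, 2, 3, 4 and 10 with the start read 1 base later. The 22 and the 35 are thus counts of list entries and not of separate joins. The shared part was 94.4% of the reads of WT 1418, 85.6% of KO 1464 and 0.0419% of KO 1421. Productive joins and joins that cannot encode a heavy chain were thus both among the shared sequences. These lists also hold entries of 1 read.

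Within a library some entries were near copies of a larger one. There were 19 entries, in 7 mice, that differed by 1 or 2 bases from a larger clonotype of the same length in the same library, and 13 of them had under 10% of its reads. WT 1418 held a group of 6 similar sequences. Its 4 largest members had similar read counts and are shown with the bases that differ from the member with an exact D match in capitals.
exact D match, 62 reads: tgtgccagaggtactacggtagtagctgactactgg
largest, 69 reads: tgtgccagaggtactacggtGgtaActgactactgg
next, 56 reads: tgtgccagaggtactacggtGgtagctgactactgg
smallest of the 4, 53 reads: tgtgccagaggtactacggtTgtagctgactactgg

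All are IGHV2-2, IGHD1-1 and IGHJ2 joins read in the hydrophobic frame, so they count 6 times in the values of this mouse. A further 3 entries, of 2 reads each, were the start of one larger clonotype joined to the end of another, with at least 20 bases of each. In WT 1536 the entry of 2 reads has the start of shared sequence 12 (190 reads) and the end of shared sequence 9 (378 reads). The bases it has in common with each are in capitals.
source of the start: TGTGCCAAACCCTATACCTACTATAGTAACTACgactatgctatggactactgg
source of the end: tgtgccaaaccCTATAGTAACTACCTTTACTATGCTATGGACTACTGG
entry of 2 reads, start in capitals: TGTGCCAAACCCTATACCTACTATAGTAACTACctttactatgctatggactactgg

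Of the 52 entries under 10 reads, 27 were a shared sequence, a near copy or such a hybrid. The definitions of near copies and hybrids were chosen after these data had been seen. For many of the measures described next, the value without shared sequences is given too.

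Clone sizes differed widely between mice, and WT and KO mice overlapped. The effective number of clonotypes is the number of equally large clones that would give the same chance that a pair of reads comes from 1 clone (the inverse Simpson index). On the log2 scale it was 1.59 in WT 1418, 1.94 in WT 1432, 3.36 in WT 1484, 1.24 in WT 1485 and 2.97 in WT 1536, with a mean of 2.22 ± 0.91 (SD, n = 5). In the KO mice it was 0.84 in 1421, 0.99 in 1464, 2.31 in 1487 and 1.91 in 1500, with a mean of 1.51 ± 0.71 (SD, n = 4). The geometric means correspond to 4.67 and 2.85 equally large clones. KO minus WT was -0.71 with a 95% interval of -2.38 to 0.71 (two-sided exact permutation test over mice, p = 0.246). Without shared sequences it was -0.36 (p = 0.476 by the same exact test). The largest clonotype held 13.4% of the reads of WT 1484 and 68.6% of those of KO 1421, the lowest and highest of the 9 mice.

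**Figure D2:**
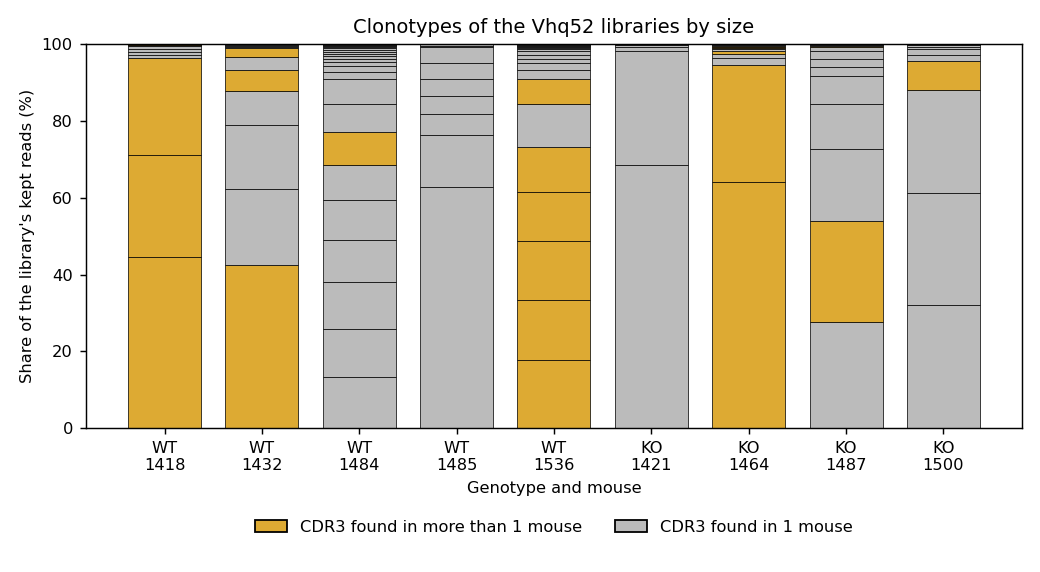
Each bar is 1 library and each segment 1 clonotype, drawn as its percent of the kept reads; gold segments are CDR3 sequences found in more than 1 mouse. Gold takes up most of WT 1418, KO 1464 and WT 1536 and none of WT 1485 and KO 1421.

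Across all lists, 37 measures were tested between KO and WT: clone sizes, V genes, pairs of segments, D frames, residues and junctions. At an unadjusted exact p under 0.05, 1 of the 37 (2.7%) passed, and 0 of 37 (0%) passed after Benjamini-Hochberg adjustment over all of them. For 5 against 4 mice there are 126 relabelings, and the smallest p they can give is 0.00794. A p that misses the threshold does not show that the genotypes are alike, and the intervals below give the differences these mice leave possible. There were 0 measures whose WT and KO values did not overlap.

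IGHV2-2 was the main V gene in both genotypes. Of the 9 IGHV2 genes of the RefSeq mouse annotation (GRCm38.p6) listed as V segments it lies nearest to the D segments, and 7 of the 9 were seen. IGHV2-2 had 65 of the 138 clonotypes, from all 9 mice. Its share of the clonotypes of a mouse was 28.0% to 60.0% in WT (mean 47.5% ± 13.4, SD, n = 5) and 38.5% to 71.4% in KO (54.9% ± 15.5, SD, n = 4). The difference was 7.40 points (95% interval -18.0 to 32.4, exact permutation p = 0.452). Without shared sequences it was 0.46 points (exact p = 0.984), and with at least 10 reads per clonotype it turned to -4.56 points.

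IGHV2-3, its neighbour in the family, was the second most frequent gene, with 21 WT and 3 KO clonotypes. Its share was 26.7% in WT 1418, 6.67% in 1432, 17.9% in 1484, 10% in 1485 and 40% in 1536. In the KO mice it was 28.6% in 1421, 0% in 1464, 0% in 1487 and 9.09% in 1500. The highest KO mouse is above all WT mice but 1536, so the groups overlap. The WT mean was 20.2% ± 13.5 (SD, n = 5) against 9.42% ± 13.5 in KO (SD, n = 4). The difference was -10.8 points (95% interval -33.3 to 12.2, exact permutation p = 0.270). It was -5.88 points without WT 1536 and -17.2 points without KO 1421. All 4 clonotypes of this gene in WT 1418 were among the sequences that are large in WT 1536. Without shared sequences 13 WT and 3 KO clonotypes remained and the difference was -4.79 points (exact p = 0.651).

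IGHV2-5 had 9 WT clonotypes, from 4 mice, and 1 KO clonotype, in mouse 1500. The mean share was 10.4% ± 7.33 in WT (SD, n = 5) against 2.27% ± 4.55 in KO (SD, n = 4). KO minus WT was -8.14 points (95% interval -18.4 to 1.09, exact permutation p = 0.103, adjusted p = 0.908). None of its clonotypes was shared, and without shared sequences the difference was -9.41 points (exact p = 0.0714). Its KO clonotype had under 10 reads, so with at least 10 reads per clonotype all 4 KO mice were at 0 and the difference was -13.6 points (exact p = 0.0476, adjusted p = 0.971). WT 1418 had no IGHV2-5 clonotype either.

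IGHV2-9-1 had 13 WT and 6 KO clonotypes. Its mean share was 13.3% ± 2.89 in WT (SD, n = 5) against 12.1% ± 10.5 in KO (SD, n = 4; exact permutation p = 0.794). The difference was -1.99 points without shared sequences (exact p = 0.730). IGHV2-9 and IGHV2-6, with 4 WT and 5 KO clonotypes each, were too few for a test. By reads they weigh more: IGHV2-9 held 44.5% of the reads of WT 1418 and 64.3% of those of KO 1464, nearly all in shared sequence 1. IGHV2-6-8 had 1 clonotype in each genotype.

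**Figure D3:**
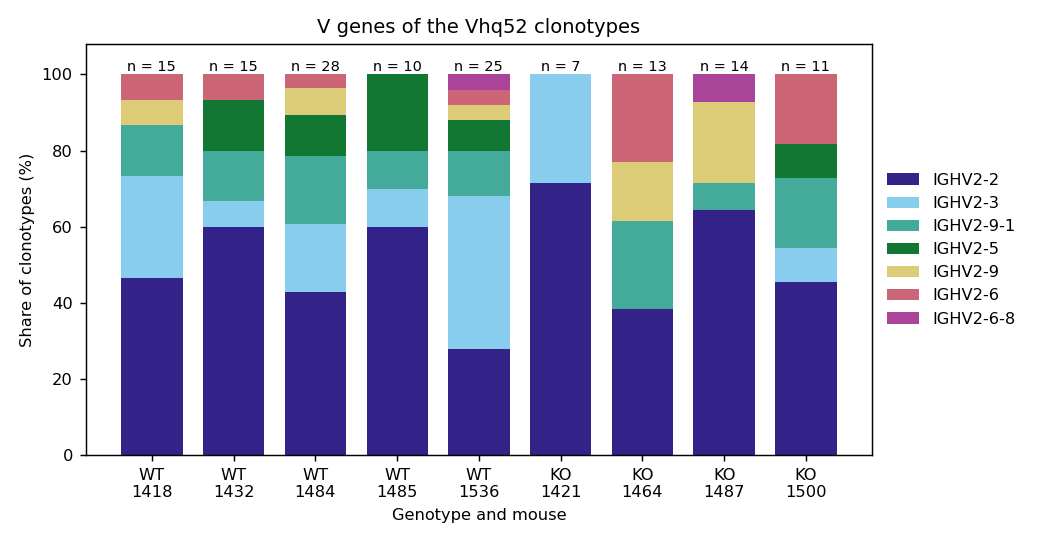
Share of clonotypes per V gene in percent for each mouse, with the number of clonotypes (n) of the mouse above its bar. IGHV2-2 (lowest segment) ranges from 28.0% to 71.4%, and the IGHV2-3 segment above it is absent in KO 1464 and KO 1487.

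JH and D segments were paired unevenly in both genotypes. IGHJ4 had 65 clonotypes, IGHJ3 34, IGHJ2 29 and IGHJ1 10. Of the IGHJ1 joins 9 were from WT mice and 1 from a KO mouse. The D segment was called IGHD2 (the DSP2 family) in 66 clonotypes, IGHD1 (DFL16) in 33, IGHD4 (DQ52) in 7, IGHD3 (DST4) in 5 and IGHD5 in 3. The calls are those of the table. Shared sequence 12, of WT 1536 and WT 1418, was called IGHD5-4 but holds all 17 bases of IGHD2-6, in the tyrosine frame. It is therefore missing from the IGHD2 counts and the frame shares below, and the effect of this was not tested. No D segment was named in 17, and in 7 the match had under 5 bases within the D segment and was not used. The largest clonotype of KO 1421 (2869 reads), printed above as IGHD2-6, is among these 7. It is therefore missing from the IGHD2 counts, the D-J pairs and the frame shares of that mouse, and the effect of this was not tested either.

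IGHV2-2 joins were spread over IGHJ2 (21 clonotypes), IGHJ3 (19) and IGHJ4 (18). Those of IGHV2-3 were mostly with IGHJ4 (17 of 24), and of these 16 were from WT and 1 from KO mice. IGHV2-3 with IGHJ4 made up 15.3% ± 15.3 (SD, n = 5) of the clonotypes of WT and 3.57% ± 7.14 (SD, n = 4) of those of KO mice. The difference of -11.7 points had a 95% interval of -36.0 to 7.62 (exact permutation p = 0.270). It was -6.55 points without WT 1536. Of the 17 joins only 9 were unshared, and without shared sequences the difference was -5.46 points (exact p = 0.484).

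IGHD2 with IGHJ4 was the most frequent D-J pair, with 33 clonotypes, 28 of them in WT. Its share was 20% in WT 1418 and 1432, 46.4% in 1484, 10% in 1485 and 32.0% in 1536. In the KO mice it was 14.3% in 1421, 15.4% in 1464, 0% in 1487 and 18.2% in 1500. By these counts every KO mouse was below all WT mice but 1485. The order rests on leaving out the largest clonotype of KO 1421, since its D match was not used. It is labelled as a join of IGHD2 with IGHJ4, and counting it would put KO 1421 above WT 1418 and 1432. The means were 25.7% ± 13.97 (SD, n = 5) and 11.96% ± 8.14 (SD, n = 4). The difference of -13.7 points had a 95% interval of -32.1 to 4.29 (exact permutation p = 0.135, adjusted p = 0.908). It was -8.54 points without WT 1484, the mouse with the highest share, -17.6 points without WT 1485 (exact p = 0.0286, adjusted p = 0.529) and -10.4 points without shared sequences (exact p = 0.357). IGHD1 was paired with IGHJ2 in 16 and with IGHJ4 in 11 clonotypes, and IGHD2 with IGHJ3 in 19. Their shares differed between the genotypes by 2.42, 2.30 and -1.57 points, with exact permutation p from 0.659 to 0.857. All 3 changed sign without shared sequences, to -6.53, -1.02 and 0.11 points.

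The D reading frame was set for the 99 clonotypes with a segment called IGHD1 or IGHD2, whose frames are alike. The segments were assembled from the matched bases of the table, with no conflict at any position. Of these segments, 2 are shown in the frames that the results turn on.
IGHD1-1, tyrosine codons in capitals: ttTATTACTACggtagtagcTAC
IGHD1-1, stop codons of another frame in capitals: tttattactacggTAGTAGctac
IGHD2-3, tyrosine codons in capitals: tcTATgatggtTACTAC
IGHD2-3, stop codon of another frame in capitals: tctaTGAtggttactac

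The frame with stop codons holds at least 1 of them in every assembled IGHD1 and IGHD2 segment except IGHD2-7, so a productive join in it must have lost the codon by trimming. Of the 12 joins in this frame, 3 used IGHD2-7, which holds none: both of KO 1487 and 1 of WT 1484. The tyrosine frame had 55 of the 99 clonotypes, the hydrophobic frame 32 and the frame with stop codons 12. IGHD1 joins were split between the hydrophobic frame (17) and the tyrosine frame (16), with 0 in the frame with stop codons. IGHD2 joins had 39, 15 and 12 in the tyrosine, hydrophobic and stop codon frames.

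With each clonotype weighted equally, the mean share of the tyrosine frame was close in both genotypes, and the WT mice spread further than the KO mice. It was 10% in WT 1418, 66.7% in 1432, 76.0% in 1484, 37.5% in 1485 and 66.7% in 1536. In KO mice it was 66.7% in 1421, 42.9% in 1464, 45.5% in 1487 and 50% in 1500. The WT mean was 51.4% ± 27.3 (SD, n = 5) against 51.2% ± 10.7 in KO (SD, n = 4). KO minus WT was -0.12 points (95% interval -33.1 to 35.5, exact permutation p = 1). It was -0.60 points without shared sequences (exact p = 0.992). Among clonotypes of 10 or more reads the means stood apart, at 49.2% in WT and 19.0% in KO, a difference of -30.2 points (exact p = 0.167). The mice then ran from 0% to 73.7% in WT and from 0% to 42.9% in KO. The largest clonotype of KO 1421 is not in these values, since its D match was not used. With all clonotypes, WT 1418 was lowest, with 8 of 10 such joins in the hydrophobic frame. Of these, 6 are the group of similar sequences shown above with its 2 smaller members. For the hydrophobic frame the WT mean was 38.1% ± 26.9 (SD, n = 5) against a KO mean of 29.2% ± 19.7 (SD, n = 4; difference -8.91 points, 95% interval -47.1 to 26.8, exact permutation p = 0.587, and -10.7 points without shared sequences).

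The frame with stop codons was the 1 measure that passed before adjustment. It had 7 of 70 clonotypes in WT and 5 of 29 in KO. The share was 10% in WT 1418, 11.1% in 1432, 8.00% in 1484, 12.5% in 1485 and 11.1% in 1536. In the KO mice it was 33.3% in 1421, 14.3% in 1464, 18.2% in 1487 and 12.5% in 1500. KO 1500 and WT 1485 had the same value, and all other KO mice were above all WT mice. The WT mean was 10.5% ± 1.68 (SD, n = 5) against 19.6% ± 9.47 in KO (SD, n = 4). KO minus WT was 9.03 points (95% interval 1.79 to 20.7, exact permutation p = 0.0159, adjusted p = 0.587). Each mouse had only 1 or 2 such clonotypes, so the share follows the number of joins it is taken over, from 3 in KO 1421 to 25 in WT 1484. The only one of WT 1418 (4 reads) is shared sequence 5, the largest of WT 1536. The only one of KO 1464 (18 reads) is shared sequence 2, the largest of WT 1432. Without KO 1421 the difference was 4.44 points (exact p = 0.0357). Without shared sequences it was 11.3 points with more spread in both groups (exact p = 0.135), and with D matches of at least 8 bases it was 20.4 points (exact p = 0.548). With near copies merged the difference was 8.25 points, from a WT mean of 12.9% (exact p = 0.103). With shared sequences only in the mouse with the most reads it was 8.23 points (exact p = 0.238). Among clonotypes of 10 or more reads the gap was 35.1 points (exact p = 0.0873). The KO shares then ran from 0% to 100%. The 100% is that of KO 1421, where 1 join of 1235 reads alone was counted and the largest clonotype was not.

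The members of this frame are shown for the KO mice and for the largest clonotype of WT 1484, with the D match in capitals. They show how little of the segment some of them keep. The last G of the match in KO 1421 and in WT 1484 lies past the end of the D segment, in the longer D reference of the table.
KO 1421, 1235 reads, IGHD2-3: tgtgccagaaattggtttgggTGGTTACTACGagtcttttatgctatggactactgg
KO 1464, 18 reads, IGHD2-3: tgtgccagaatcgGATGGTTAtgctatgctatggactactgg
KO 1487, 3 reads, IGHD2-7: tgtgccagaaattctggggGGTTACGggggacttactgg
KO 1487, 4 reads, IGHD2-7: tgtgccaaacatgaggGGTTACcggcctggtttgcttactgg
KO 1500, 1419 reads, IGHD2-3: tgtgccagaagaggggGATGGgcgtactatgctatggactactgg
WT 1484, 704 reads, IGHD2-4: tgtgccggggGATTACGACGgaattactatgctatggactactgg

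By reads these clonotypes ranged from a few reads to the largest of a library: shared sequence 2 was the top clonotype of WT 1432 with 2900 reads and is the entry of 18 reads in KO 1464. Weighted by reads, the WT mean of the frame with stop codons was 18.4% ± 18.1 (SD, n = 5) against a KO mean of 38.4% ± 42.6 (SD, n = 4; exact permutation p = 0.405), and the tyrosine frame 40.9% ± 23.6 and 16.2% ± 14.2 (exact p = 0.111).

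**Figure D4:**
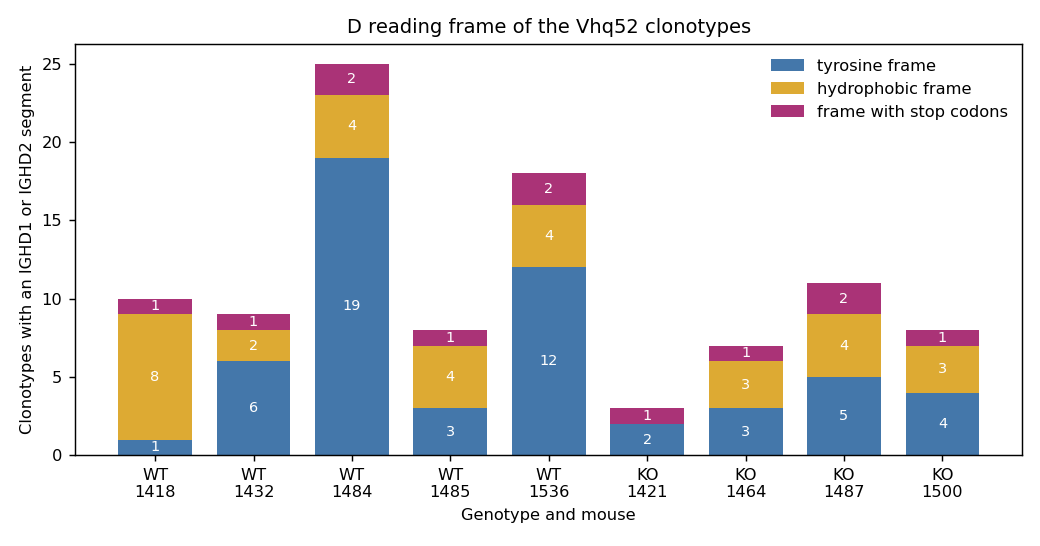
Number of clonotypes with an IGHD1 or IGHD2 segment in each D reading frame, per mouse. Every mouse has 1 or 2 clonotypes in the frame with stop codons, and WT 1418 is the only one with most of its clonotypes, 8 of 10, in the hydrophobic frame.

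Residues were counted between the first and last residue of the CDR3. Tyrosine made up 24.2% of the residues of a clonotype on average in WT 1484 and 23.0% in WT 1536, and 12.8% in WT 1485 and 13.5% in WT 1432. It was 18.6% in WT 1418, and the KO mice ran from 14.8% to 18.5%. The means were 18.4% ± 5.26 in WT (SD, n = 5) against 17.1% ± 1.73 in KO (SD, n = 4; difference -1.32 points, 95% interval -8.21 to 5.72, exact permutation p = 0.619). Hydrophobic residues made up 34.4% ± 4.38 in WT and 34.5% ± 2.93 in KO mice (SD, n = 5 and 4; difference 0.091 points, 95% interval -5.77 to 6.35, exact permutation p = 0.960). Glycine was at 7.88% ± 2.56 and 9.15% ± 1.77, and basic residues were at 12.7% ± 2.96 and 12.5% ± 5.01. KO minus WT was 1.27 points for glycine and turned to -0.71 points weighted by reads and to -1.70 points among clonotypes of 10 or more reads. The difference in basic residues turned from -0.20 to 0.25 points without shared sequences. The exact permutation p of the 7 residue measures ran from 0.413 to 0.960. The CDR3 had a median of 14 residues in both genotypes, with 7 to 20 in WT and 9 to 19 in KO clonotypes.

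Among the 65 IGHJ4 joins alone, 48 from WT and 17 from KO mice, the means stood further apart. A KO mouse had only 2 to 6 of them. Hydrophobic residues had a WT mean of 32.6% ± 2.86 (SD, n = 5) against 39.8% ± 4.4 in KO (SD, n = 4), with a highest WT mouse at 35.6% and a lowest KO mouse at 35.9%. The difference of 7.18 points had the smallest exact p the design allows (0.00794), with an adjusted p of 0.190, the lowest over all settings tried. The tyrosine frame had 46.8% ± 16.2 in WT and 14.6% ± 17.2 in KO mice among these joins (difference -32.3 points, exact p = 0.0397, adjusted p = 0.317). The KO values of this frame rest on 5 IGHD1 and 5 IGHD2 joins in all. That of KO 1421 rests on 1 IGHD2 join, so a single join sets its share. Its largest clonotype, also an IGHJ4 join, is not counted there because its D match was not used. The D segments kept 9.95 bases in WT and 10.94 in KO mice (difference 0.99, exact p = 0.0397, adjusted p = 0.317). Shared sequences bear on these values: 11 of the 13 shared sequences are IGHJ4 joins. Without shared sequences, 4 WT and 4 KO mice were left and the difference in hydrophobic residues was 6.25 points (exact p = 0.200). The tyrosine frame difference then was -32.6 points with 4 WT and 3 KO mice (exact p = 0.0857).

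WT and KO mice overlapped in the mean number of inserted and of trimmed bases at every junction. Between V and D, 3.55 ± 1.45 bases were inserted in WT (SD, n = 5) and 4.08 ± 1.55 in KO mice (SD, n = 4). The difference of 0.53 bases had a 95% interval of -1.88 to 2.82 (exact permutation p = 0.595). WT 1432 and KO 1487 shared the highest value, 5.83 bases, and WT 1418 had the lowest, 2.08. Between D and J the values were 2.77 ± 0.45 and 2.58 ± 1.62 bases (difference -0.19, 95% interval -1.38 to 1.89, exact permutation p = 0.849). KO 1500 had 5 bases there and the other KO mice 1.57 to 2, all below every WT mouse (2.08 to 3.23). Without KO 1500 the difference was -0.9997 bases (exact p = 0.0357, adjusted p = 0.661), so this mouse decides its size.

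Of the 121 clonotypes with a D segment, the V-D junction had no inserted base in 18 of 84 in WT and 7 of 37 in KO, and the D-J junction in 15 and 11. The inserted bases were rich in G and C, as is known of terminal transferase: the WT mean was 63.8% ± 2.76 (SD, n = 5) against a KO mean of 68.9% ± 5.98 (SD, n = 4). The difference of 5.10 points had a 95% interval of -2.04 to 11.97 (exact permutation p = 0.127). The KO mice ran from 61.5% in 1421 to 76.1% in 1464. Without KO 1421 the difference was 7.55 points (exact p = 0.0179, adjusted p = 0.661), and without KO 1464 it was 2.70 points (exact p = 0.304). Without shared sequences it was 3.20 points (exact p = 0.635).

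Trimming of the V end was 0.840 to 1.89 bases in WT (mean 1.39 ± 0.40, SD, n = 5) and 1.08 to 2.86 in KO mice (1.89 ± 0.75, SD, n = 4), with a difference of 0.51 bases (95% interval -0.39 to 1.46, exact permutation p = 0.246). It varied with the V gene: 0 of the 9 IGHV2-9 joins were trimmed, while IGHV2-5 joins lost 2.20 and IGHV2-2 joins 1.86 bases on average. Of the 9 IGHV2-9 entries, 4 are shared sequence 1, and another is a near copy of it in KO 1464. The 5′ end of D was trimmed by 4.2 ± 0.56 bases in WT and 4.75 ± 0.29 in KO mice (SD, n = 5 and 4; difference 0.55, 95% interval -0.083 to 1.36, exact permutation p = 0.127). With each shared sequence counted only in the mouse with the most reads it was 0.67 bases (exact p = 0.0238, adjusted p = 0.857). At the D 3′ end the means were 3.39 ± 0.82 and 3.58 ± 0.38 bases. The J start lost 3.90 ± 1.63 and 3.28 ± 0.92 bases (difference -0.61, 95% interval -2.67 to 1.76, exact permutation p = 0.524). D segments kept 10.4 ± 1.04 bases in WT and 10.2 ± 2.59 in KO mice, while among IGHJ4 joins alone the KO mean was the higher one. Without shared sequences, KO minus WT was 0.72 bases for V-D and -0.067 for D-J insertion, 0.32 for V, 0.42 for D 5′, 0.14 for D 3′ and -1.23 for J trimming, with exact p from 0.127 to 0.976.

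**Figure D5:**
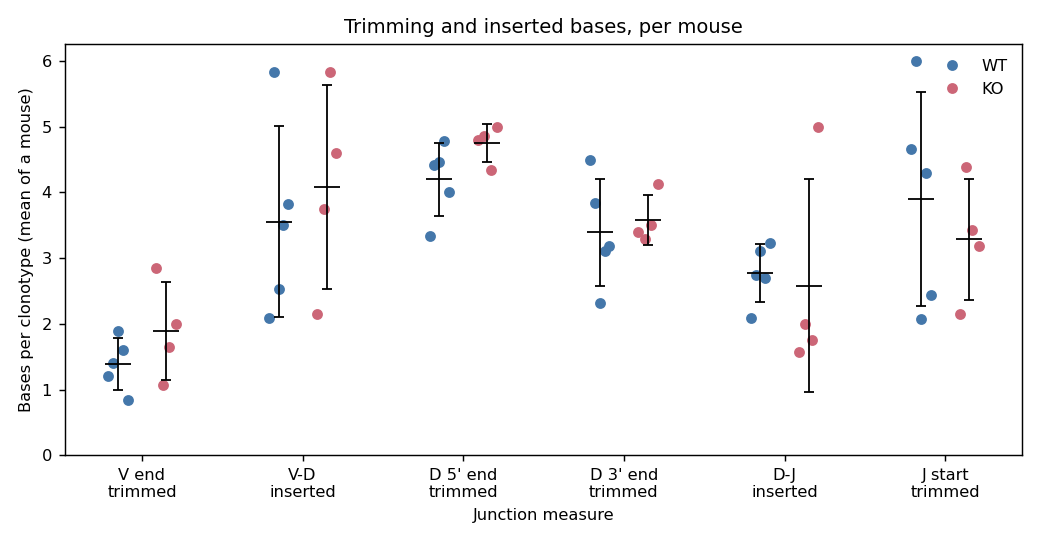
Mean number of trimmed or inserted bases per clonotype at each end, 1 point per mouse (WT blue, KO red), with the mean and SD of each genotype in black. WT and KO points overlap at every end, and the KO point at 5 inserted D-J bases is mouse 1500.

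The same mice were amplified with Vh7183 and Vh558 primers, which allows a comparison of IGHV2 joins with those of other V families within a mouse, over both genotypes. The amplicons were sequenced in different batches, so amplicon and batch cannot be told apart. There were 16 tests, and 3 of 16 (18.8%) had an unadjusted exact p under 0.05, while 0 of 16 (0%) passed after adjustment. V ends of the Vhq52 clonotypes were trimmed more than those of Vh7183 in 9 of 9 mice: 1.61 ± 0.60 against 0.48 ± 0.38 bases (SD, n = 9). The difference of 1.13 bases had the smallest p this design allows (exact sign-flip permutation test, p = 0.00391, adjusted p = 0.0625). Against Vh558 it was 0.99 bases higher, in 7 of 7 mice (exact sign-flip p = 0.0156, also the smallest possible, adjusted p = 0.0833). Weighted by reads the differences were 0.51 bases (exact p = 0.129) and 0.41 bases (exact p = 0.172).

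The tyrosine frame was lower in Vhq52 than in Vh558 joins in 7 of 7 mice, with 48.6% ± 20.9 against 79.7% ± 15.8 (SD, n = 7). The difference was -31.1 points (exact sign-flip permutation p = 0.0156, adjusted p = 0.0833). Against Vh7183 it was lower in 6 of 9 mice, with a mean difference of -18.5 points (51.3% against 69.8%, exact p = 0.102, adjusted p = 0.181). Weighted by reads that difference was -52.7 points (exact p = 0.00391, adjusted p = 0.0625). The hydrophobic frame was 25.2 points higher than in Vh558, higher in 5 of 7 mice and lower in 0 (exact p = 0.0625, adjusted p = 0.156), and 13.2 points higher than in Vh7183 (exact p = 0.188). For tyrosine residues the difference was -3.47 points from Vh7183 (exact p = 0.0703) and -3.55 points from Vh558 (exact p = 0.0625). For V-D insertion it was -0.57 bases (exact p = 0.547) and -1.27 bases (exact p = 0.0625). The D-J insertion differed by 0.34 bases (exact p = 0.465) and -0.22 bases (exact p = 0.641).

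Whether KO minus WT differed between Vhq52 and Vh7183 was tested for the measure with the lowest p in each list but that of V genes, which the amplicons do not share. D 5′ trimming and the GC share of inserted bases tied for the lowest p of their list, so both were tested, which makes 6 tests. The measures were chosen on the Vhq52 values that enter the tested difference, so these p-values cannot be taken at face value. The frame with stop codons differed by 9.03 points in Vhq52 and by 8.05 points in Vh7183. The difference between them was 0.98 points (exact permutation of genotypes over 9 mice, p = 0.865). This p does not test whether KO and WT differ in Vh7183, where the share was 9.28% ± 11.4 over both genotypes (SD, n = 9). For the share of IGHD2 with IGHJ4, KO minus WT was -13.7 points in both, a difference of -0.049 points (exact p = 1). The log2 effective number of clonotypes was -0.71 in Vhq52 and -1.21 in Vh7183 (exact p for the difference 0.341). Glycine was 1.27 points higher in KO in Vhq52 and at -2.18 points in Vh7183, a difference of 3.45 points (exact p = 0.143, adjusted p = 0.429). Weighted by reads, and again among clonotypes of 10 or more reads, the glycine difference in Vhq52 itself had the other sign, and the gap between the amplicons was 3.84 points (exact p = 0.183) in the first case and 0.12 points (exact p = 0.952) in the second. Trimming of the 5′ end of D was 0.55 bases higher in KO in Vhq52 and at -1.23 bases in Vh7183, a difference of 1.78 bases (exact p = 0.0873, adjusted p = 0.429). The GC share of inserted bases was 5.10 points higher in KO in Vhq52 and 2.87 points higher in Vh7183, a difference of 2.23 points (exact p = 0.595). These tests use the same mice, so the values of both amplicons are not independent of each other.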

How the data were processed

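Genomic DNA amplicons of 9 mice were analysed from the deposited table of clonotypes of the whole series. Per the labels, a VH family primer and a JH4 primer were used. Counts are the authors' raw reads for each clonotype. The deposited fraction column divides them by the reads of every clone in that library. Other deposited columns give positions and trimmed lengths within the CDR3. The layout is that of MiXCR, named in the series title per the labels, and no source used here gives its version, settings or genome build. All entries of the table are productive with at least 2 reads. The genotype column of the table equals the label in all 138 entries. There were 2 other libraries of the table that were not used here.

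The deposited text of the V-D junction and of the D part was shifted by 1 base against the positions: it matched the CDR3 1 base earlier in 814 of 814 entries with a D segment. The parts were therefore cut from the CDR3 by the positions. The table's D references were 3 times as long as the RefSeq D segment, with the D segment in the middle. A D match was used only with at least 5 bases in it. A match can run past the D segment, and such bases were counted neither as inserted bases nor as D length. Clone lists of the single samples name other V and D genes than the series table, so only their counts and CDR3 sequences were used.

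Each clonotype had the same weight in a mouse, and the mouse was the replicate. KO and WT were compared by a two-sided exact permutation test of the difference of means, with 95% intervals from inverting it and Benjamini-Hochberg adjustment over the 37 measures at 0.05. In an alternative setting the adjustment was over the measures tested in it, which could be fewer, and never across settings. Amplicons were compared within mice by an exact sign-flip test (16 tests), with repeat libraries of a mouse averaged. V genes and pairs of at least 10 clonotypes were tested. Named were V genes of at least 5 clonotypes, JH genes, D families, the largest clonotype of each mouse, and shared sequences with at least 1% of the reads of a mouse. Replicates are mice, 1 library each, so p-values also hold the spread of PCR. Members and lists were chosen with earlier results of these data known. Alternatives were: no shared sequences, shared sequences only in 1 mouse, read weights, at least 10 reads, IGHV2 only, IGHJ4 only, the single lists, and each mouse left out. Added after seeing the data were merging of near copies, D matches of at least 8 bases, shared sequences only at 1% of reads or more, and IGHJ4 joins without shared sequences. Python 3.11.15 with numpy 2.4.6, pandas 2.3.3 and matplotlib 3.10.9 was used.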

Additional observations from a re-analysis of the deposited data

Results flagged for a closer look

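Of 74 groups of 4 or 5 mice examined, 5 held a mouse that stood apart from the others by Dixon's criterion, which chance alone meets in about 1 in 20 groups. The IGHV2-5 share was 9.09% in KO mouse 1500 and 0% in the other KO mice. The share of IGHV2-3 with IGHJ4 was 14.3% in KO mouse 1421 and 0% in the other KO mice. For these 2 shares the other 3 KO mice are tied at 0, so any single clonotype in the remaining mouse meets the criterion, and the rate of 1 in 20 does not apply to them. The hydrophobic D frame had 0% in KO mouse 1421, over 3 joins, against 36.4% to 42.9% in the other KO mice. KO mouse 1500 had a mean of 5 inserted bases between D and J, against 1.57 to 2 in the other KO mice. The share of joins with no inserted base between D and J was 57.1% in KO mouse 1421, against 20% to 25% in the other KO mice.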

How the results depend on the processing

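No comparison of KO with WT passed an adjusted p of 0.05 in any setting tried (0 of 647 fits, lowest adjusted p 0.190), and 15 had an unadjusted exact permutation p under 0.05. Of the 37 measures, 10 kept their sign in every setting and 27 changed it in at least 1. The cause of a change in sign was not tested. Libraries of 7 to 28 clonotypes limit every share. The log2 effective number of clonotypes was -0.45 with the lists of the single samples and -0.98 to -0.42 with 1 mouse left out. The setting with only IGHV2 genes is the same as the main one, since all 138 clonotypes have one. No paired analysis was possible because WT and KO are different mice and the labels give no replicate numbers.

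KO minus WT turned as follows. Without shared sequences, tyrosine residues were at 0.54, basic residues at 0.25 and hydrophobic residues at -0.68 points, and the pairs IGHD1 with IGHJ2, IGHD1 with IGHJ4 and IGHD2 with IGHJ3 at -6.53, -1.02 and 0.11 points. With shared sequences only in the mouse with the most reads, hydrophobic residues were at -1.21 and the tyrosine frame at 1.63 points, the same 3 pairs at -0.56, -1.96 and 1.21 points, and D 3′ trimming at -0.030 bases. The share of IGHV2-9-1 with IGHJ4 was then at -6.57 points (exact p = 0.0476, adjusted p = 0.857). With shared sequences only at 1% of reads or more, hydrophobic residues were at -0.46, basic residues at 0.38 and IGHD1 with IGHJ2 at -2.92 points. Weighted by reads, the hydrophobic frame was at 4.72, glycine at -0.71, basic residues at 2.34 and IGHD1 with IGHJ2 at -0.88 points, D-J insertion at 0.26 bases, the GC share of inserted bases at -0.71 points V trimming at -0.052, D 3′ trimming at -1.26 and D length at 0.45 bases. With at least 10 reads, IGHV2-2 was at -4.56, glycine at -1.70, basic residues at 2.41 and IGHD1 with IGHJ2 at -5.64 points, D-J insertion at 0.53 bases, the GC share at -8.25 points and D 5′ trimming at -0.045 bases. Among IGHJ4 joins, IGHV2-9-1 was at 2.10, the hydrophobic frame at 2.59, glycine at -1.14 and basic residues at 2.66 points, with V-D insertion at -0.40, D-J insertion at 0.075, V trimming at -0.16, D 3′ trimming at -0.89 and D length at 0.99 bases. Among IGHJ4 joins without shared sequences, V-D insertion was at -0.072, D-J insertion at 0.34, V trimming at -0.41, D 3′ trimming at -0.75 and D length at 0.31 bases, and the GC share at -2.71, glycine at -1.80 and basic residues at 5.74 points. With D matches of at least 8 bases, D 3′ trimming was at -0.28 and D length at 0.68 bases. With the lists of the single samples, glycine was at -1.32 points.

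With 1 mouse left out, the tyrosine frame ran from -10.5 to 6.04 points and the hydrophobic frame from -14.4 to 1.57. The frame with stop codons ran from 4.44 to 11.4 points, with an exact p under 0.05 in 5 of 9 cases. Tyrosine residues ran from -2.73 to 0.13 and hydrophobic residues from -1.45 to 1.50 points. IGHV2-9-1 ran from -4.86 to 2.83 points, V-D insertion from -0.056 to 1.17 and D-J insertion from -0.9997 to 0.14 bases. Basic residues ran from -1.81 to 1.62 points, IGHD1 with IGHJ2 from -0.64 to 9.55, IGHD1 with IGHJ4 from -1.54 to 5.60 and IGHD2 with IGHJ3 from -4.92 to 2.58 points. D 3′ trimming ran from -0.081 to 0.46 and D length from -0.95 to 1.01 bases.

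Against Vh558, D length was at 0.16 bases weighted by reads, and D-J insertion at 0.022 bases with at least 10 reads and from -0.64 to 0.017 with 1 mouse left out. Against Vh7183, D-J insertion was at -0.0035 bases with at least 10 reads. The KO minus WT difference between Vhq52 and Vh7183 for IGHD2 with IGHJ4 was at 14.5 points with at least 10 reads and from -5.02 to 5.34 with 1 mouse left out, and for the frame with stop codons it ran from -1.84 to 5.19. For the GC share of inserted bases it was at -15.0 points weighted by reads, at -11.8 with at least 10 reads, and from -0.71 to 5.79 with 1 mouse left out.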

Other observations

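The clone lists of the single samples also held large joins that are out of frame or carry a stop codon, and some were found in more than 1 mouse. The largest, with a stop codon, had 939 reads in KO 1464 (32.4% of its list) and 15 in WT 1484. Another with a stop codon had 863 reads in WT 1432 (19.7%) and 5 in KO 1464. An entry called out of frame had 113 reads in WT 1418 (4.28%) and 59 in KO 1464 (2.04%). Its residues VPNE_LHAMDYW are given by the bases of shared sequence 1 with the start read 1 base later. It is therefore not counted here as a join apart from sequence 1. A short entry of 6 residues was listed in 7 mice, with at most 7 reads.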
